A study of Callithrix jacchus with 5 samples.

Results

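The HOXC genes matched in this series were HOXC12, HOXC11, HOXC10 and HOXC9, 4 of 30811 gene identifiers in the count table. They were taken as every identifier whose symbol starts with HOXC once Ensembl marmoset gene IDs were paired with symbols. The study sequenced RNA from cultured marmoset cells (Callithrix jacchus, a New World monkey). The 5 libraries were 1 of fibroblasts (E01F, titled P1), 3 of embryonic stem (ES) cells, each from its own line (No40, titled P63; DSY127, titled P17; No20, titled P45), and 1 of induced pluripotent stem (iPS) cells (RNAiPS_1) made, per the series title, from fibroblasts with an RNA-based method. The labels give no genotype, treatment, body site or age for any library, and do not say whether E01F was the parent of the iPS cells. The fibroblast and iPS groups are 1 library each, and each ES line is 1 library.

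HOX genes encode homeodomain transcription factors that give cells of the embryo their position along the head-to-tail axis. They lie in several clusters, and within a cluster the order of genes along the chromosome follows the order of their domains along the body. HOXC9 to HOXC12 belong to the posterior part of their cluster, related to Abdominal-B of the fly. In pluripotent cells HOX clusters are known to be held at low expression by Polycomb proteins, and fibroblasts of adult tissue are known to keep a HOX pattern that reflects the body site they came from.

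The fibroblast library held 58601185 counts, the ES libraries 34111715 to 46523012 and the iPS library 5746449. Levels are given as CPM (counts per 1e6 library counts) after scaling by TMM, a factor that corrects for differences in RNA composition. A count of 3, used as the floor where a library had no count, equalled 0.0630 CPM for fibroblasts, 0.0610 to 0.0834 CPM for ES lines and 0.507 CPM for iPS cells. In each library more genes had exactly 2 counts than exactly 1 (1311 against 515 in the iPS library). The counting intervals below treat counts as independent events, cover counting error only, and may therefore be too narrow. The labelled cell types were checked against markers: 7 of 8 matched fibroblast markers were higher and all 6 matched pluripotency markers lower in the fibroblast library than in the ES lines, as called by the edgeR quasi-likelihood test. Over all 17462 genes tested, 8.80% passed as higher and 9.28% as lower. Of 4 matched skeletal muscle markers, 2 were also called higher in the fibroblast library, MYOD1 (61 counts) and MYOG (100 counts). In No40, DSY127 and No20 they had 2, 4 and 2 counts (MYOD1) and 0, 0 and 3 counts (MYOG). MYOD1 met the filter on low counts through the fibroblast library alone. Of 4 matched neural markers, 1 was called higher in the fibroblast library, PAX6 (570 counts). None of the tested markers of keratinocytes (2), endothelium (5), melanocytes (1) or blood (2) was called higher in the fibroblast library. The other listed markers of keratinocytes, melanocytes and blood were unmatched or not tested, so they could not be called. Only the ES group has more than 1 library, which leaves 2 residual degrees of freedom (1 when an ES line is left out), so the single libraries are assumed to vary as an ES line does.

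The first comparison asked how HOXC expression in the fibroblasts differed from that in the ES lines. All 4 HOXC genes were higher in the fibroblast library than in the ES lines, where they stood between 0.0229 and 3.29 CPM. All 4 passed the edgeR quasi-likelihood test at an adjusted p under 0.05, against 8.80% of the 17462 genes tested that passed as higher. The median log2 fold change of the 4 genes was 3.84, beside -0.15 over all genes tested. In bulk RNA, a larger share of expressing cells and more RNA per cell cannot be told apart. All 4 had more CPM in the fibroblast library than in any ES line, which was also the case for 35.4% of the genes tested.

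HOXC12, the most posterior of the matched genes and one known for expression in hair follicles, spans 42874450 to 42876069 on chromosome 9 in the files' coordinates; the sources used here name no build. It had 234 counts (4.92 CPM) in the fibroblast library, and 2, 2 and 1 counts in ES lines No40, DSY127 and No20 (0.0406, 0.0556 and 0.0229 CPM). The fibroblast library was the only one of the 5 with more than 2 counts, so HOXC12 met the filter on low counts through that library alone. With no such filter its log2 fold change was 6.86 (adjusted p = 0.000543, edgeR quasi-likelihood test). The fitted log2 fold change was 6.85 ± 0.87 (SE; adjusted p = 0.00464, edgeR quasi-likelihood test). Since the ES lines held 5 counts together, the direct ratio of the fibroblast level to the pooled ES level was 127, with an exact 95% counting interval from 53.5 to 394.

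HOXC11, known for a role in hindlimb patterning, spans 42892917 to 42896224. It stood at 7.54 CPM in the fibroblast library (359 counts), and at 0.691, 0.389 and 1.24 CPM in No40, DSY127 and No20 (34, 14 and 54 counts). The ES lines differed among themselves by up to 3.17-fold, and the lowest and highest of their counting intervals did not overlap. From an ES mean of 0.772 ± 0.429 CPM (SD, n = 3), the edgeR quasi-likelihood test gave a log2 fold change of 3.28 ± 0.79 with an adjusted p of 0.0329. The call was lost without ES line No40 (log2 fold change 3.26, adjusted p = 0.105) and without DSY127 (3.04, adjusted p = 0.0583), and with scaling by total counts alone (2.89, adjusted p = 0.0520). Leaving out a line leaves 1 residual degree of freedom, and the genes called higher over the whole table went from 1537 to 924 without No40 and 1330 without DSY127.

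HOXC10, known for its part in lumbar motor neuron identity, spans 42906999 to 42910633. Its level was 13.2 CPM in the fibroblast library (627 counts) and 0.894, 0.807 and 1.67 CPM in No40, DSY127 and No20 (44, 29 and 73 counts). The first 2 of these ES lines had overlapping counting intervals, and No20 lay above both. Against the ES mean of 1.12 ± 0.475 CPM, it differed by 3.55 ± 0.67 on the log2 scale (adjusted p = 0.0157 by edgeR's quasi-likelihood test). Without ES line No40 it was 3.46, with an adjusted p of 0.0639.

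HOXC9, which specifies thoracic motor neuron columns, spans 42923918 to 42927161 and had the highest CPM of the 4 in the fibroblast library. It reached 34.2 CPM there (1626 counts), and 1.12, 1.45 and 3.29 CPM in No40, DSY127 and No20 (55, 52 and 144 counts). No20 was 2.95-fold above No40, the lowest line. With an ES mean of 1.95 ± 1.17 CPM, the fitted log2 difference was 4.13 ± 0.68, at an adjusted p of 0.0101 in edgeR's quasi-likelihood test. HOXC9 and HOXC12 passed under all 11 alternative settings, with adjusted p of at most 0.0440 and 0.0322, each of these without ES line No40.

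**Figure D1:**
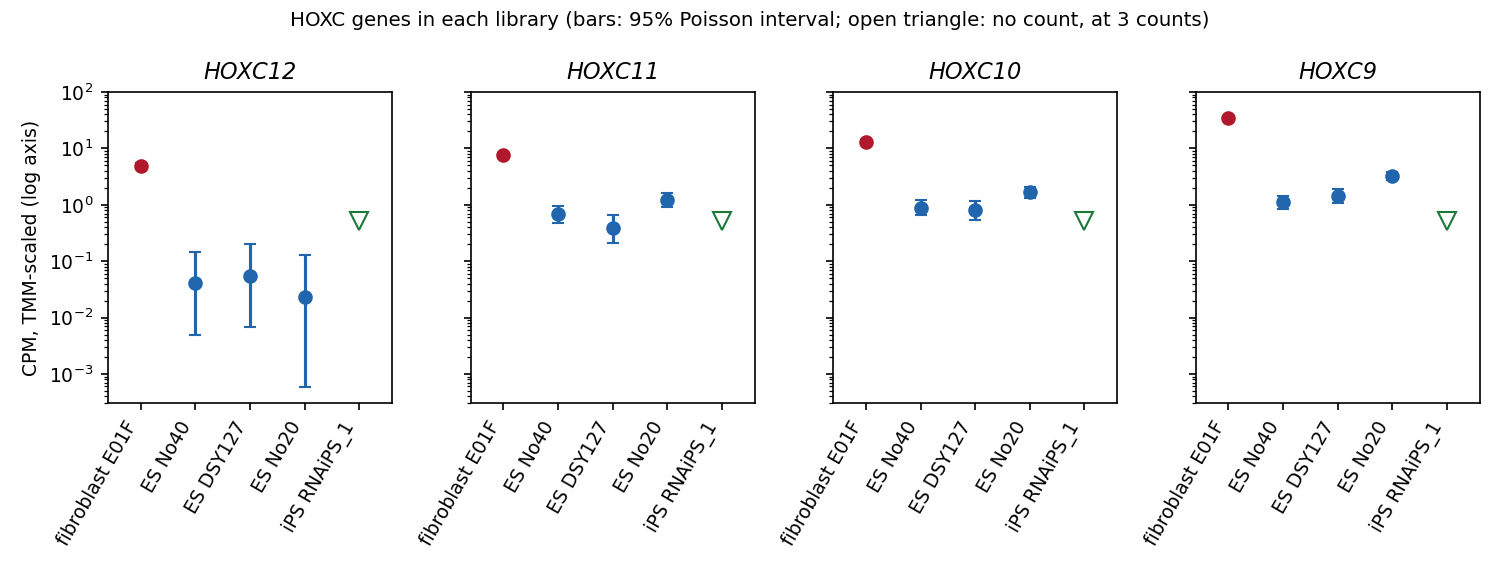
CPM (log axis) of HOXC12, HOXC11, HOXC10 and HOXC9 in the fibroblast (red), ES (blue) and iPS (green) libraries, with 95% exact Poisson intervals that cover counting error only; open triangles mark libraries without a count, drawn at 3 counts. The fibroblast library is highest for each gene, from 4.92 CPM for HOXC12 to 34.2 CPM for HOXC9, and the iPS library has no count for any of them.

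**Figure D2:**
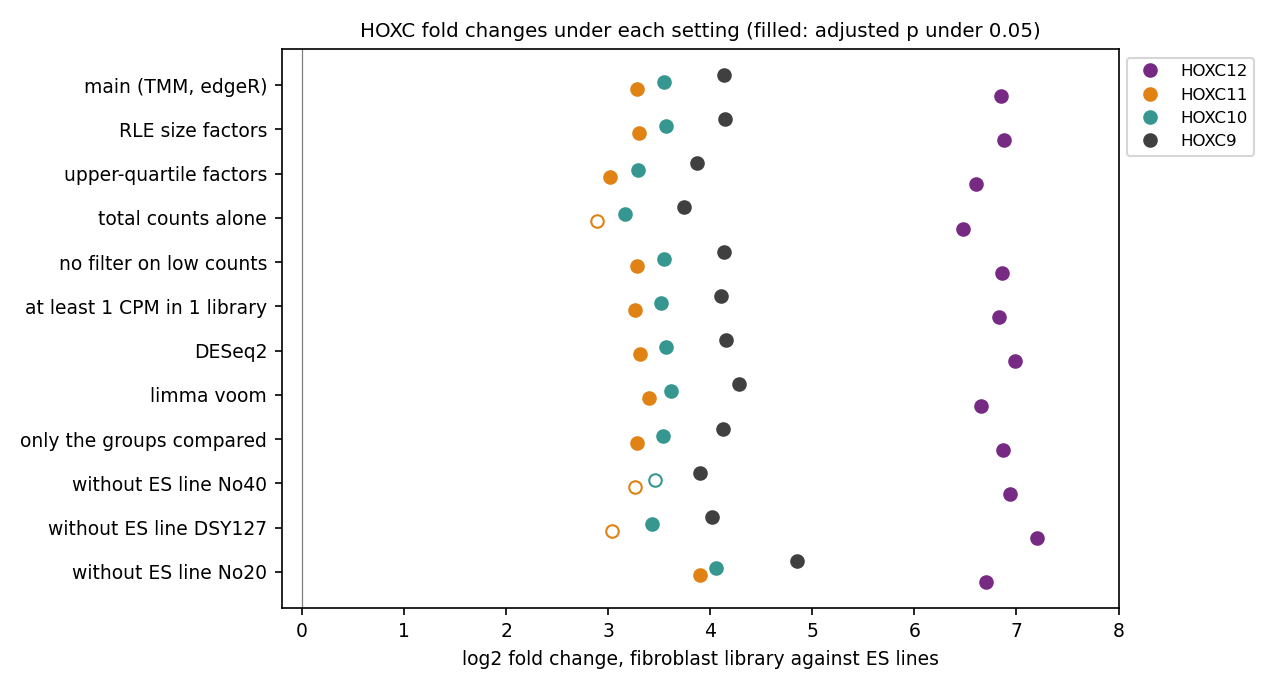
Log2 fold change of the fibroblast library against the ES lines (x axis) for each HOXC gene under the main setting and 11 alternatives (y axis); filled points passed at an adjusted p under 0.05. HOXC12 stays between 6.48 and 7.20 and HOXC9 between 3.74 and 4.85 and both are filled throughout, whereas HOXC11 is open under 3 settings and HOXC10 without ES line No40.

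To compare the genes with one another, CPM were divided by the summed exon length of each gene model in the files (843 bases for HOXC12, 2044 for HOXC11, 480 for HOXC10 and 1560 for HOXC9). The models may not cover whole transcripts, which limits this scale. In the fibroblast library the order by CPM per kb was HOXC10 (27.4), HOXC9 (21.9), HOXC12 (5.83) and HOXC11 (3.69), and neighbours in that order had counting intervals that did not overlap. In each ES line the order was HOXC10, HOXC9, HOXC11 and HOXC12. On this scale HOXC12 and HOXC11 stood in the opposite order in fibroblasts and ES lines. The turn rests on the model lengths, since by CPM with no length HOXC11 was 1.53 times HOXC12 in fibroblasts and so above it in each of these 4 libraries. In DSY127 alone, the counting intervals of these 2 genes overlapped (0.00799 to 0.238 and 0.104 to 0.320 CPM per kb), as did those of HOXC9 and HOXC10 (0.692 to 1.22 and 1.13 to 2.41).

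The CPM ratio of HOXC12 to HOXC11 within a library, which needs no length, was 0.652 in the fibroblast library and 0.0588, 0.143 and 0.0185 in No40, DSY127 and No20. HOXC12 was therefore a larger part of the HOXC signal in fibroblasts than in any ES line, although the 1 or 2 counts of HOXC12 per ES line leave the ES ratios imprecise and the difference was not tested. The CPM ratio of HOXC9 to HOXC10 lay closer together, at 2.59 in the fibroblast library and 1.25 to 1.97 in the ES lines.

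Among the ES lines, No20 had the most HOXC expression. The summed level of the 4 genes was 2.74 CPM in No40, 2.70 CPM in DSY127 and 6.22 CPM in No20, which is 4.59%, 4.51% and 10.4% of the 59.8 CPM in the fibroblast library. HOXC9, HOXC10 and HOXC11 were highest in No20, and HOXC12, at 1 or 2 counts, in DSY127. No20 was the highest ES line for 33.1% of all genes tested. No20 also had the lowest summed level of the 6 pluripotency markers, 2912 CPM against 5806 in No40 and 4924 in DSY127. NANOG was not lowest there (522.7 CPM, against 462.5 in No40 and 561.6 in DSY127). The summed fibroblast marker level of No20, 2545 CPM, was close to the 2241 CPM of No40 and above the 1350 CPM of DSY127. Single fibroblast markers differed from that sum. VIM (1240 CPM, against 429 in No40 and 448 in DSY127), PDGFRA, PDGFRB and FAP were highest in No20. COL1A1, COL1A2 and COL3A1 were highest in No40, and DCN in DSY127. Summed endothelial markers (5 of 5 matched) were also highest in No20, at 414 CPM against 292 in No40 and 367 in DSY127, and 6.05 CPM in fibroblasts. The part of these cell-type markers in the HOXC values was not tested. A difference between single lines has no replicate check, and the P numbers (63, 17 and 45) do not follow the order of the HOXC values.

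The second comparison asked whether HOXC expression in the iPS cells differed from that in the ES lines. None of the 4 HOXC genes had a count among the iPS reads. At the mean level of the ES lines, that library would have held 11.6 counts of HOXC9, 6.65 of HOXC10, 4.57 of HOXC11 and 0.235 of HOXC12, or 23.0 in all, and at the level of the lowest ES line 15.96 in all. Against the floor of 3 counts, the ES mean was at least 3.85-fold higher for HOXC9, 2.22-fold for HOXC10 and 1.52-fold for HOXC11, and 7.67-fold for the sum of the 4 genes. With a floor of 6 counts, chosen after seeing the data, these were 1.92-fold for HOXC9, 1.11-fold for HOXC10 and 3.83-fold for the sum, and HOXC11 had no bound. The level of HOXC11 in DSY127, 0.389 CPM, was under the floor of 3 counts as well. The ES level of HOXC12 was itself under the floor of the iPS library, so a difference in HOXC12 was not detectable at this depth.

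No HOXC gene passed the test of the iPS library against the ES lines. The adjusted p of the edgeR quasi-likelihood test was 0.332 for HOXC9, 0.376 for HOXC10, 0.529 for HOXC11 and 0.876 for HOXC12. That test called 0% of all genes lower in the iPS library, DESeq2 0.434% and limma voom 0%, and none of these 3 called a HOXC gene. Before adjustment, HOXC9, HOXC10 and HOXC11 were under the 0.05 threshold in the edgeR test and HOXC12 was not, where 3.13% of all genes tested were lower by that measure. Of the 1392 genes with an ES mean between those of HOXC11 and HOXC9, 90 (6.47%) had no iPS count.

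Fibroblasts and iPS cells, 1 library of each, could be compared by level only. Against the floor of 3 counts, the fibroblast level was at least 67.3-fold higher for HOXC9, 26.0-fold for HOXC10, 14.9-fold for HOXC11 and 9.69-fold for HOXC12. The iPS library at the fibroblast level would have held 202 counts of HOXC9, 77.9 of HOXC10, 44.6 of HOXC11 and 29.1 of HOXC12. All 8 fibroblast markers had counts in the iPS library, and they summed to 14.8% of their fibroblast level. Collagens made up most of that sum (COL1A1 4922, COL1A2 3447 and COL3A1 1684 of 10700 CPM). Single markers ranged from 1.04% of the fibroblast level for DCN, 2.28% for PDGFRA and 5.18% for VIM to 32.5% for PDGFRB. DCN, PDGFRA and PDGFRB lay below every ES line, and VIM within the ES range. COL1A1, COL1A2, COL3A1 and FAP lay above every ES line, FAP at 13.7 CPM (26.8% of the fibroblast level). COL1A2 alone of the 8 passed as higher than in the ES lines (adjusted p = 0.0205, edgeR quasi-likelihood test), against 0.109% of all genes tested. At the 14.8% of the sum the library would have held 52.4 HOXC counts, a figure that the collagens set. The part of these markers in the HOXC values was not tested. Among the 326 genes called higher in fibroblasts whose fibroblast CPM lay between those of HOXC12 and HOXC9, 47 (14.4%) had no count in the iPS library.

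The stretch around the 4 genes was described with the other identifiers of the count table within 200 kb. HOXC12, HOXC11, HOXC10 and HOXC9 lie in this order on the plus strand of the files' coordinates, with gaps of 16847, 10774 and 13284 bases, and no other gene model overlaps them. In human and mouse an antisense transcript, HOTAIR, lies between HOXC11 and HOXC12. As the sources used here name no strand setting, reads from an antisense transcript cannot be told apart from those of the gene. The RefSeq table for another assembly, calJac240_pri, lists 9 HOXC genes in one stretch of chromosome 9, of which the other 5 (HOXC4, HOXC5, HOXC6, HOXC8 and HOXC13) had no identifier matched by symbol and are not analysed here. In that table HOXC13 neighbours HOXC12, and HOXC8, HOXC6, HOXC5 and HOXC4 lie beyond HOXC9.

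The window held 7 identifiers without a symbol. Some of them may be HOXC genes, which could not be settled because no table used here pairs them with names, so statements on the 4 HOXC genes do not cover the whole cluster. Of these 7, 5 were tested and 4 were higher in fibroblasts, against 8.80% of all genes tested. The 4 were called under all 11 alternatives as well. ENSCJAG00000018800, at 42858419 to 42866061, lies before HOXC12 and had 603 counts in the fibroblast library and 0, 6 and 12 in No40, DSY127 and No20 (log2 fold change 6.42 ± 1.27). ENSCJAG00000018828, at 42934244 to 42936236 and so the next model after HOXC9, had the highest CPM of the window in fibroblasts. Its levels were 79.1 CPM there and 0.975, 0.668 and 2.65 CPM in No40, DSY127 and No20 (5.78 ± 0.73 on the log2 scale). It had 7 counts in the iPS library, or 1.18 CPM, which lies within the range of the ES lines. ENSCJAG00000018835 and ENSCJAG00000035592 share their start at 42941765 and overlap, so reads there may be split between them or left out. Their fibroblast levels were 56.2 and 41.1 CPM and their log2 fold changes 3.69 ± 0.58 and 4.07 ± 0.56. The iPS library had 0 counts for the former, which at the ES mean would have had 25.8, and 2 for the latter. None of the 5 tested identifiers passed between the iPS library and the ES lines in the main fit. As lower in the iPS library, 1 passed with DESeq2 and 1 without No20, where 0.434% of all genes and 12 genes did.

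Farther along, ENSCJAG00000018842, on the minus strand 236 kb from the start of HOXC12, stood at 23.6 CPM in fibroblasts against an ES mean of 11.7 ± 3.49 CPM. It did not pass edgeR's quasi-likelihood test (1.01 ± 0.51 on the log2 scale, adjusted p = 0.217). It had 52 counts in the iPS library. The largest fitted fold changes of the window were those of HOXC12 and the identifier before it, both at 18 ES counts or fewer over the 3 lines.

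**Figure D3:**
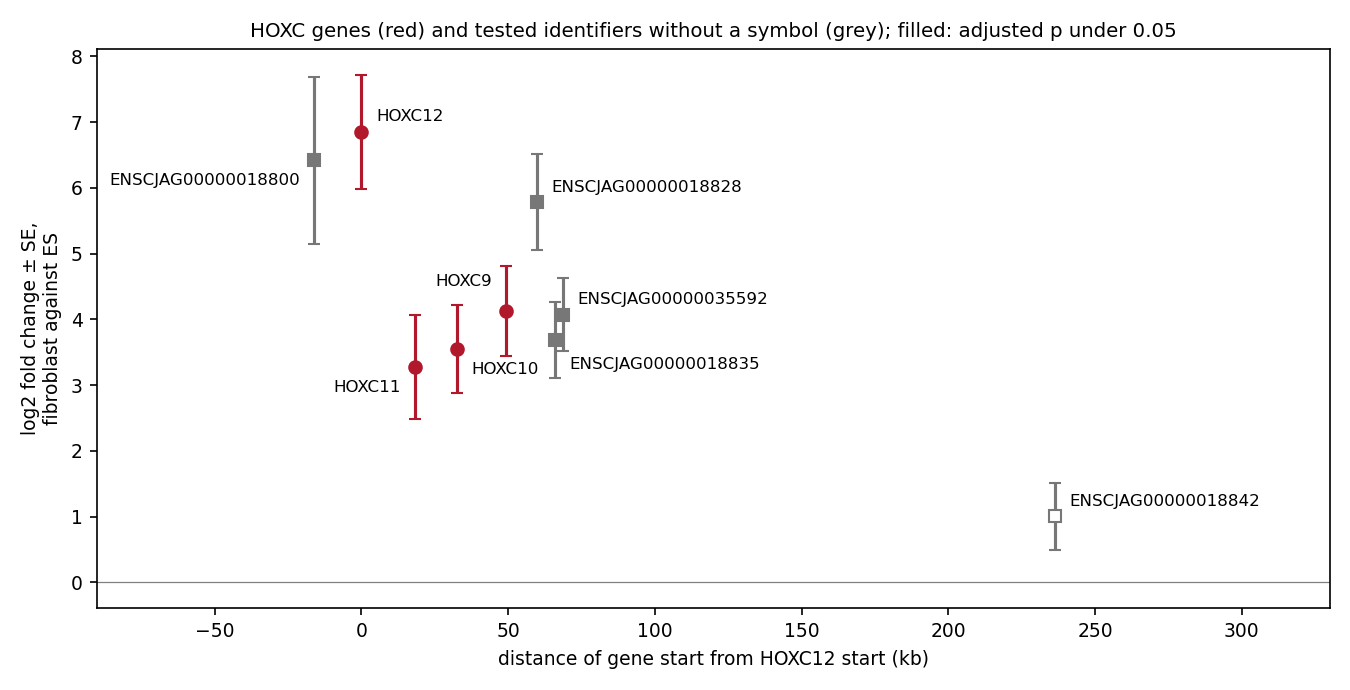
Log2 fold change ± SE of the fibroblast library against the ES lines (y axis) by distance of the gene start from the HOXC12 start in kb (x axis), for the 4 HOXC genes (red) and 5 tested identifiers without a symbol (grey); filled points passed at an adjusted p under 0.05, and 2 identifiers that share a start are drawn slightly apart. The 8 filled points lie between 3.28 and 6.85, and the open point 236 kb away lies at 1.01.

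The other HOX clusters give the context. Of 18 matched HOXA, HOXB and HOXD genes, 4 passed as higher in fibroblasts and none as lower: HOXB13 (log2 fold change 6.65 ± 1.22), HOXD8 (4.04 ± 0.68), HOXB2 (3.93 ± 0.95) and HOXD4 (3.10 ± 0.74). Over all genes tested, 8.80% passed as higher. The median log2 fold change of the 18 was 2.13, beside -0.15 over all genes tested. HOXB13, the most posterior gene of its cluster, had 1050 counts in fibroblasts and 2, 2 and 24 in No40, DSY127 and No20, much as HOXC12 did in 2 of the 3 lines. None of these 4 passed without ES line No40, where 2 HOXC genes, HOXC9 and HOXC12, did. Without No20, 13 of the 18 passed, along with all 4 HOXC genes. The genes called higher over the whole table went from 1537 to 924 without No40 and to 2184 without No20.

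Among the ES lines, No20 was the highest for 17 of these 18 genes, HOXB1 being the exception, against 33.1% of all genes tested. The summed level was 22.0 CPM in No40, 25.6 CPM in DSY127 and 137 CPM in No20. HOXD1, named here after its values were seen, gave 54.5 CPM of the last. In the iPS library 10 of the 18 had no count, against 6.72% of all genes tested. The iPS library held 32 counts of these 18 genes, where the mean ES level would have given 363 and the lowest ES line 130. Those 32 counts, 14 of them of HOXD1, came to 2.51% of the fibroblast sum. The unnamed identifier after HOXC9 had 7 counts, so whether the clusters differ in the iPS library cannot be read from the 4 matched HOXC genes.

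**Figure D4:**
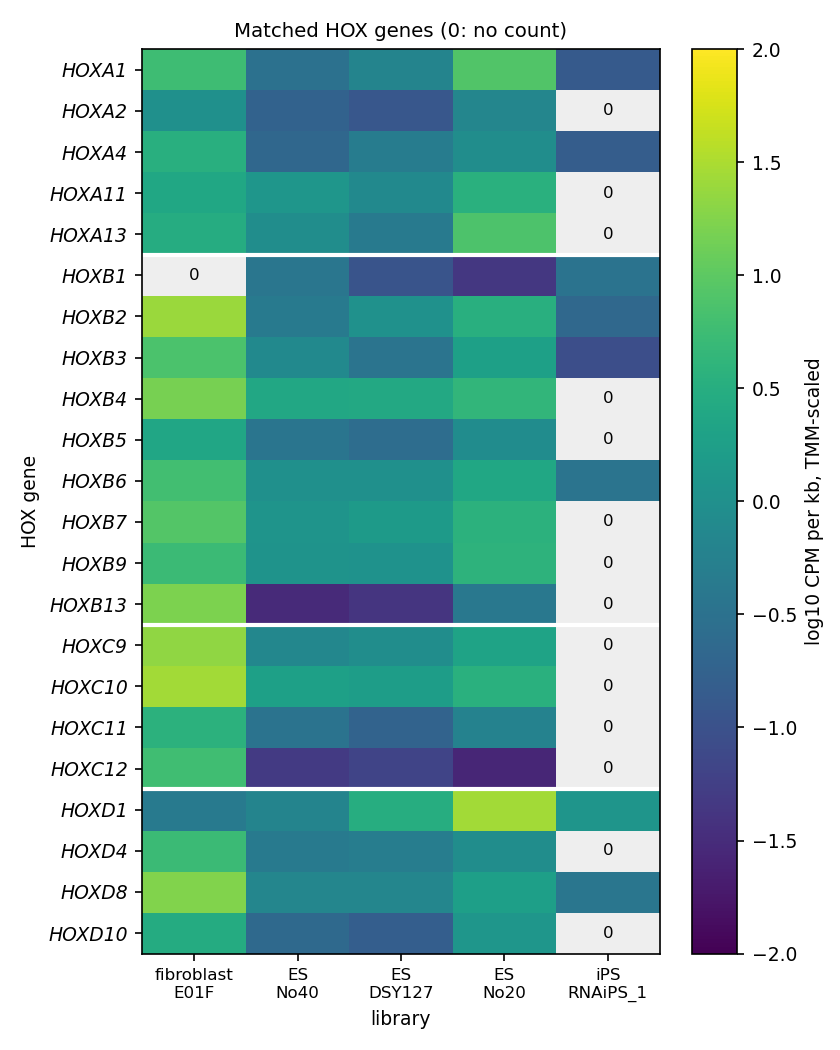
Log10 of CPM per kb of gene model (colour) for the 22 matched HOX genes (rows, by cluster) in the 5 libraries (columns); a grey cell with 0 marks a gene without a count. The iPS column has no count for the 4 HOXC genes and for 10 of the other 18, against 6.72% of all genes tested. No20 is the highest ES line for 3 of the 4 HOXC genes and 17 of the other 18, against 33.1% of all genes tested.

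Genes known to act with or upstream of HOX genes passed in both directions between fibroblasts and ES lines. Their counts stand beside the 8.80% of all genes that passed as higher and the 9.28% that passed as lower. MEIS2, a homeodomain partner of HOX proteins, was the only one of 7 matched cofactors to pass. It stood at 72.2 CPM in fibroblasts against 7.31, 6.20 and 13.9 CPM in No40, DSY127 and No20 (2.98 ± 0.48). It missed the threshold without No40 (adjusted p = 0.0506, edgeR quasi-likelihood test). MEIS2 was highest in the iPS library, at 157 CPM (4.10 ± 0.48 against the ES lines, adjusted p = 0.0559 by the same test). With DESeq2, among other alternatives, 1 of the 7 cofactors was called higher in the iPS library. Of 26 Polycomb genes 4 were higher and 4 lower in fibroblasts than in the ES lines. JARID2, which recruits the PRC2 complex, fell by 4.12 on the log2 scale (28.2 against 744, 448 and 275 CPM), and MTF2, another PRC2 accessory factor, by 2.15. PCGF5, a subunit of a PRC1 variant, rose by 4.25, and ASXL1, part of an H2A deubiquitinase, rose too but not without No40, without DSY127 or with total counts alone. The other 4, named after their values were seen, were EZH2 and PHC1 (lower) and PHF19 and PHC2 (higher). EZH2 was lost without each of the 3 ES lines in turn, PHC1 without No40, and PHF19 and PHC2 each under 4 settings (upper-quartile factors, total counts alone, without No40 and without DSY127). Without No40 the Polycomb count was 2 higher and 2 lower, and JARID2, MTF2 and PCGF5 passed under all 11 alternatives.

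Of 12 Trithorax and H3K27 demethylase genes, ASH1L alone passed (1.71 ± 0.45), and it was not called without DSY127, when scaled by upper quartiles, or when scaled by library totals, where the list had 0 higher and 2 lower. Of 9 axial regulators, CDX1, CYP26A1 and TBXT were lower and RARB, a retinoic acid receptor, higher. CDX1, a homeobox factor that acts on HOX genes, stood at 0.0210 CPM in fibroblasts and 5.24 to 27.1 CPM over the ES lines. RARB did not pass without No40, without DSY127, or when scaled by upper quartiles or by library totals, and TBXT not without No40. Limma voom called none of CDX1, CYP26A1 and TBXT.

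Position-linked homeobox and T-box genes of fibroblasts were mixed in the iPS library: of 12 matched, 5 had no count there, and 2 passed as higher than in the ES lines. Over all genes tested, 6.72% had no iPS count. Against the ES lines, 7 of the 12 were higher in the fibroblast library and 1, TBX4, lower. Of all genes tested, 8.80% passed as higher and 9.28% as lower. Without No40 the 7 became 4, while the genes called higher over the whole table went from 1537 to 924. TBX4, a hindlimb T-box factor, stood at 0.294 CPM in fibroblasts, 12.7, 11.0 and 18.2 CPM in No40, DSY127 and No20, and had no count in the iPS library, where the ES mean would have given 82.7. TBX15 stood at 86.2 CPM in fibroblasts, 2.15, 3.23 and 4.16 CPM in No40, DSY127 and No20, and 101 CPM in the iPS library. PRRX1, a limb mesenchyme factor, stood at 174 CPM in fibroblasts, 31.0, 22.0 and 33.1 CPM in No40, DSY127 and No20, and 389 CPM in iPS cells. Both were also higher in the iPS library than in the ES lines (adjusted p = 0.0341 and 0.0349, edgeR quasi-likelihood test), where 0.109% of all genes passed as higher, though neither passed without No40 or with limma voom. PRRX2 (146 CPM in fibroblasts, 3.38 CPM in the iPS library) was within the ES range of 1.88 to 6.59 CPM. TWIST2 stood at 268 CPM in fibroblasts, 8.53 to 19.0 CPM over the ES lines, and 70.7 CPM in iPS cells. MEOX2 and MSX1, named after their values were seen, were also called higher in fibroblasts and had no count in the iPS library.

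**Figure D5:**
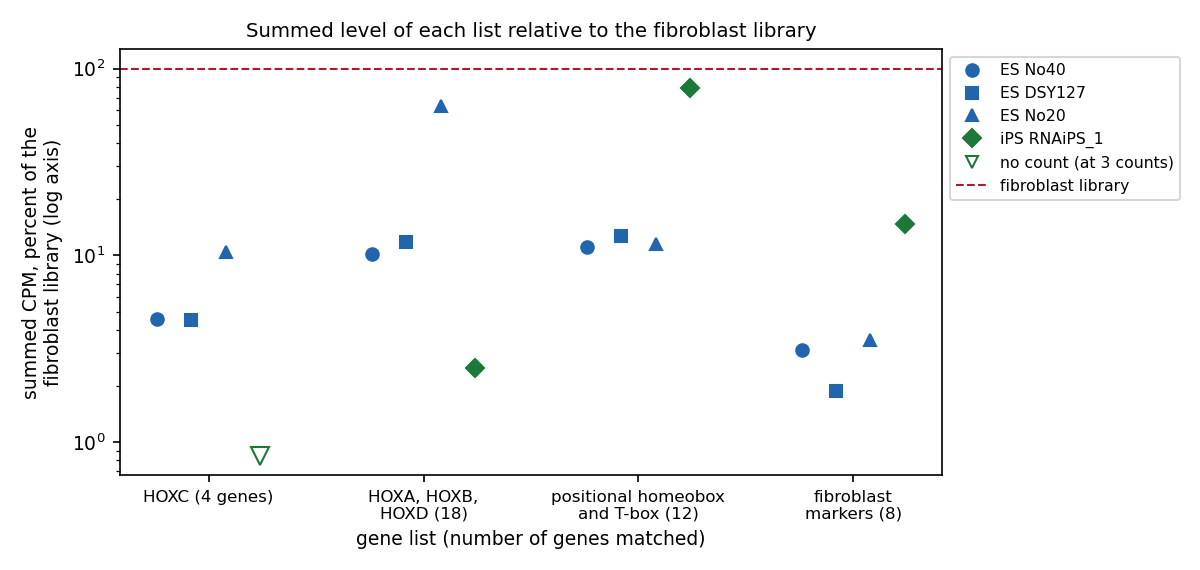
Summed CPM of 4 gene lists as a percentage of the fibroblast library (log axis, dashed line at 100) in the ES lines (blue) and the iPS library (green); the open triangle marks the HOXC sum of the iPS library, which had no count and is drawn at 3 counts. The iPS library is under the ES lines for both HOX lists, and above them for the sums of the positional list (79.0%, of which PRRX1 and TBX15 give 389 and 101 of 574 CPM) and of the fibroblast markers (14.8%, mostly collagens).

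Genes outside the HOX families with the most similar profile over the 5 libraries were found by the Euclidean distance between log2 CPM (prior count 2) centred on each gene's mean, among 9348 genes with a symbol and at least 5 CPM in some library. For HOXC9 they were TIRAP (distance 0.968), LGR5 (1.12) and MARVELD1 (1.33). TIRAP, a Toll-like receptor adaptor, and MARVELD1 had no count in the iPS library, and LGR5, an R-spondin receptor, had 1. HOXC10, at 1.08, was as close to HOXC9 as these, and HOXC11 lay at 1.74. For HOXC12 the nearest were DCN (0.385), MICAL2 (0.754) and COL6A2 (0.760), which have counts in the iPS library. The HOXC12 profile outside fibroblasts rests on the prior count, since no library but the fibroblast one had more than 2 counts, and HOXC12 lay 3.98 from HOXC9. The 5 points of each profile share the same libraries and 1 high fibroblast value.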

How the data were processed

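For 5 libraries the authors deposited raw, whole-number counts of reads by gene, with another column for gene model length in bases. The submitters' processing notes name featureCounts 1.5.2, STAR 2.5.3a and Trim Galore 0.4.0. The sources used here give no build and no settings for strand, read pairs or multi-mapping reads, so paralogous HOX genes may share reads. Of 30811 identifiers, 12660 (41.1%) matched a symbol.

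Tests used edgeR 4.0.16 under R 4.3.3 (filterByExpr, TMM, glmQLFit, glmQLFTest) in 1 fit of 3 groups over 17462 genes, with Benjamini-Hochberg adjustment over all of them and a threshold of 0.05. The common biological coefficient of variation was 0.458. DESeq2 1.42.0 and limma 3.58.1 (voom) were alternatives, as were 3 other scalings, 2 other filters, fits of the compared groups alone and fits without each ES line. The labels give no batch. Counting intervals are 95% exact Poisson or, for ratios, exact binomial. The fits were tested on simulated counts. No sequence is shown.

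Named genes follow a rule: every HOXC gene, every identifier within 200 kb, for HOXC9 and HOXC12 the 3 most similar genes, and up to 4 passing genes of each context list by adjusted p. Members and lists were chosen with earlier results of these data known.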

Additional observations from a re-analysis of the deposited data

How the results depend on the processing

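The direction of all 4 HOXC genes in fibroblasts against ES lines held under the 11 alternatives run. The count that passed was 2 to 4 when an ES line was left out, and 3 or 4 otherwise. No alternative called any of the 4 matched HOXC genes in the iPS library. Of the neighbouring identifiers without a symbol, 1 was called lower there with DESeq2 and 1 without No20. The fitted value of HOXC12 in the iPS library, with no count, changed sign with limma voom (0.79). Of the other 18 HOX genes, 8 passed with DESeq2, 7 with limma voom and 0 to 13 when an ES line was left out. Over the whole table, 2055 genes were called higher in fibroblasts with DESeq2, 1674 with limma voom and 924 to 2184 without an ES line, against 1537. Total counts alone moved the median over all genes tested, fibroblasts against ES lines, from -0.15 to -0.54 (log2). A floor of 6 counts, chosen after seeing the data because genes with 2 counts outnumber those with 1, lowers the bound of the HOXC sum, ES lines over iPS cells, from 7.67-fold to 3.83-fold, and that of HOXC9, fibroblasts over iPS cells, from 67.3-fold to 33.7-fold. Without a length correction HOXC11 was 1.53 times HOXC12 in fibroblasts, against 0.633 times per length. The iPS library, at 5746449 counts, limits what can be said of genes under 0.507 CPM. No paired analysis was possible because the fibroblast and iPS groups are 1 library each and the labels do not pair libraries of different groups.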
